A study of Mus musculus with 6 samples.

Results

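The Iroquois homeobox genes Irx1 to Irx6 and the POU-domain gene Pou3f3 were followed in cultured embryonic mouse kidneys exposed to an inhibitor of histone deacetylases. Every spot other than a control whose gene name in the scanner files is one of these 7 genes was taken, which gave 11 of the 41174 probes of the array, or 7 of the 27670 gene names they carry. Irx2 has 3 probes, Irx1 and Pou3f3 have 2 each, and the other genes have 1 each. All 11 passed the filter on dim probes and none was saturated on any array.

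Kidneys of CD1 embryos at E13.5 were grown on filters for 6 hours with Scriptaid, a hydroxamic acid that inhibits histone deacetylases, or with Nullscript, its inactive relative, each at 2.0 µg/ml. The labels call the kidneys paired without saying how the pairs were split. Each array compared total RNA of both drugs, one in Cy3 and the other in Cy5. There were 3 biological replicates and 6 arrays, 2 per replicate with opposite dyes. How many embryos make up a replicate is not stated, and a whole kidney holds many cell types, so fewer cells of a type and less RNA per cell cannot be told apart.

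Iroquois proteins are homeodomain transcription factors of the TALE class. In mouse the genes lie in 2 clusters, Irx1, Irx2 and Irx4 on chromosome 13 and Irx3, Irx5 and Irx6 on chromosome 8, and in the forming nephron members of the family mark its middle part. In frogs and zebrafish Iroquois genes are needed for intermediate segments of the pronephros. Pou3f3, also called Brn1, lies on chromosome 1 and is required in mouse for the loop of Henle and the distal tubule to develop. Both gene groups are also expressed in the developing nervous system.

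All ratios are log2 values, labelled Scriptaid over labelled Nullscript, and "higher" and "lower" refer to the channel labelled Scriptaid. The direction is not settled. By the dye fields Cdkn1a, a cell cycle inhibitor gene known to rise with histone deacetylase inhibitors in other cells, had a ratio of -0.91 ± 0.16 (SD, n = 3), and the cyclin gene Ccnd1, known to fall, had 1.90 ± 0.19. The study itself is known to report lower kidney developmental genes with the inhibitor, opposite to the side that the dye fields give. Were the 2 drug names swapped, each sign given here would turn.

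Of the 11 probes, 4 were higher and 1 was lower at a limma adjusted p under 0.05, adjusted over all 39390 probes tested. That is 45.5% of the member probes, and over all probes the share was 45.2%, with 23.5% higher and 21.8% lower. The count is therefore at the background of the array and is no result about these genes. Changes were small: the median absolute log2 ratio was 0.09 over the member probes, 0.11 over all probes and 0.34 over all called probes. The called probes belonged to Irx1, Irx2 and Pou3f3, and the single probes of Irx3, Irx4, Irx5 and Irx6 did not pass.

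**Figure D1:**
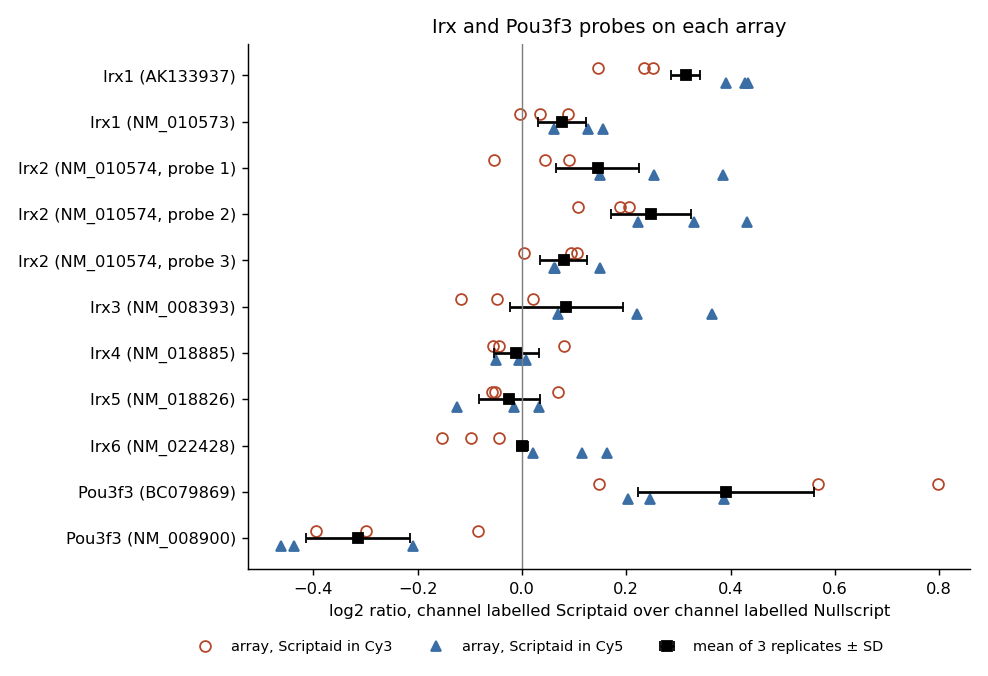
Log2 ratio (labelled Scriptaid over labelled Nullscript, horizontal axis) of each member probe on each array, with open circles for the 3 arrays with Scriptaid in Cy3, triangles for the 3 with Scriptaid in Cy5, and squares with bars for the mean ± SD of the 3 replicates. The 2 Pou3f3 probes lie on opposite sides of 0 on all 6 arrays, and the circles and triangles of Irx6 lie on opposite sides of 0.

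Irx1 gave the lowest adjusted p of the group. Its brightest probe, designed on the cDNA AK133937, had normalised log2 intensities of 12.31, 12.83 and 12.54 in the channel labelled Scriptaid and 12.00, 12.49 and 12.25 in the channel labelled Nullscript, for replicates 1, 2 and 3. The value labelled Scriptaid was above its partner in each replicate, although the ranges of the drugs overlapped because the replicates differed in level. The log2 ratio was 0.31 ± 0.03 (SD, n = 3), or 1.24-fold (95% interval 0.24 to 0.39 on the log2 scale, limma adjusted p = 0.00120). All 6 arrays had a positive ratio, with means of 0.21 for Scriptaid in Cy3 and 0.42 for Scriptaid in Cy5. The size of this ratio was at the 74.9th percentile of all probes. AK133937 was not matched in the RefSeq table, so this probe is assigned to Irx1 by its gene name only.

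The other Irx1 probe, on the RefSeq transcript NM_010573, was dim. It was well above background on 3 of 6 arrays in the channel labelled Scriptaid and on 1 of 6 in the channel labelled Nullscript, and so passed the filter only through the first. Its ratio was 0.08 ± 0.05 (limma adjusted p = 0.125). The ratio depended on the processing, at 0.58 with the processed intensities of the software (limma adjusted p = 0.00892) and -0.18 with median centring in place of loess (limma adjusted p = 0.0404). The level of Irx1 therefore rests on 1 probe, which is assigned to the gene by name only.

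Irx2 had positive ratios by all its probes, of which 2 passed. All 3 of its probes are designed on NM_010574. The probe in the middle of the brightness order had log2 intensities of 8.49, 8.79 and 8.47 in the channel labelled Scriptaid, against 8.17, 8.63 and 8.21 in the channel labelled Nullscript. Its ratio was 0.25 ± 0.08 (1.19-fold, limma adjusted p = 0.00668), positive on 6 of 6 arrays, and the adjusted p was 0.0572 without replicate 3. The brightest probe had 10.05, 10.13 and 10.39 against 9.81, 10.04 and 10.29. The values labelled Scriptaid were again the upper ones in each replicate, with overlapping ranges.

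The brightest Irx2 probe had a ratio of 0.14 ± 0.08 (limma adjusted p = 0.0407). This call was lost under 8 of 16 other ways of processing, among them without replicates 1, 2 and 3 in turn (limma adjusted p = 0.0971, 0.0715 and 0.118). Scriptaid in Cy3 alone gave a ratio of 0.03 (limma adjusted p = 0.718). The dimmest probe had 0.08 ± 0.04 and did not pass (limma adjusted p = 0.112). The 3 probes did not give 1 value. The middle probe's ratio was above the brightest's in each replicate, with a mean difference of 0.10 ± 0.05 (SD, n = 3). The dimmest minus the middle one was -0.17 ± 0.06 on average, negative in each replicate, and the dimmest minus the brightest was -0.07 ± 0.09, with replicates of both signs. No pair of these probes can pass an exact sign-flip test over 3 replicates. The neighbouring annotation Gm20554, a long noncoding RNA, overlaps Irx2 in the RefSeq table and has no probe of that name.

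Irx4 is the third gene of the chromosome 13 cluster and is known in mouse chiefly from the ventricle of the heart. Its probe was well above background on all 6 arrays for both drugs, with log2 intensities of 7.97, 7.92 and 8.02 in the channel labelled Scriptaid and 7.94, 7.94 and 8.07 in the channel labelled Nullscript. The replicates did not share a sign. The ratio was -0.01 ± 0.04 (limma adjusted p = 0.818), with a 95% interval of -0.10 to 0.07. A change as large as that of Irx1 lay outside this interval.

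In the chromosome 8 cluster no probe passed. Irx3, a factor of tubule segments in frog pronephros, had log2 intensities of 10.07, 10.10 and 9.86 in the channel labelled Scriptaid and 9.88, 10.12 and 9.77 in the channel labelled Nullscript. Replicate 2 went against the other two. The ratio was 0.09 ± 0.11 (limma adjusted p = 0.233, 95% interval -0.04 to 0.21). With Scriptaid in Cy3 the arrays averaged -0.05 and with Scriptaid in Cy5 0.22, and the Cy5 arrays taken alone passed (limma adjusted p = 0.0360).

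Irx5, the partner gene of Irx3 in the cluster, was well above background on all 6 arrays for both drugs. Its log2 intensities were 6.78, 6.71 and 6.70 in the channel labelled Scriptaid and 6.75, 6.73 and 6.78 in the channel labelled Nullscript, which overlap. The ratio was -0.02 ± 0.06 (limma adjusted p = 0.634, 95% interval -0.12 to 0.07), and with median centring it was -0.21 (limma adjusted p = 0.0378). Irx6 had 9.50, 9.51 and 9.82 against 9.49, 9.52 and 9.81. The drugs gave nearly the same value within each replicate, and the ratio was 0.00 ± 0.01 (limma adjusted p = 0.981, 95% interval -0.07 to 0.07). Its ratios were above 0 on the 3 arrays with Scriptaid in Cy5 and below 0 on the 3 with Scriptaid in Cy3. A dye term was called for none of the 11 member probes, against 3.82% of all probes, and at Irx6 its limma adjusted p was 0.120.

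**Figure D2:**
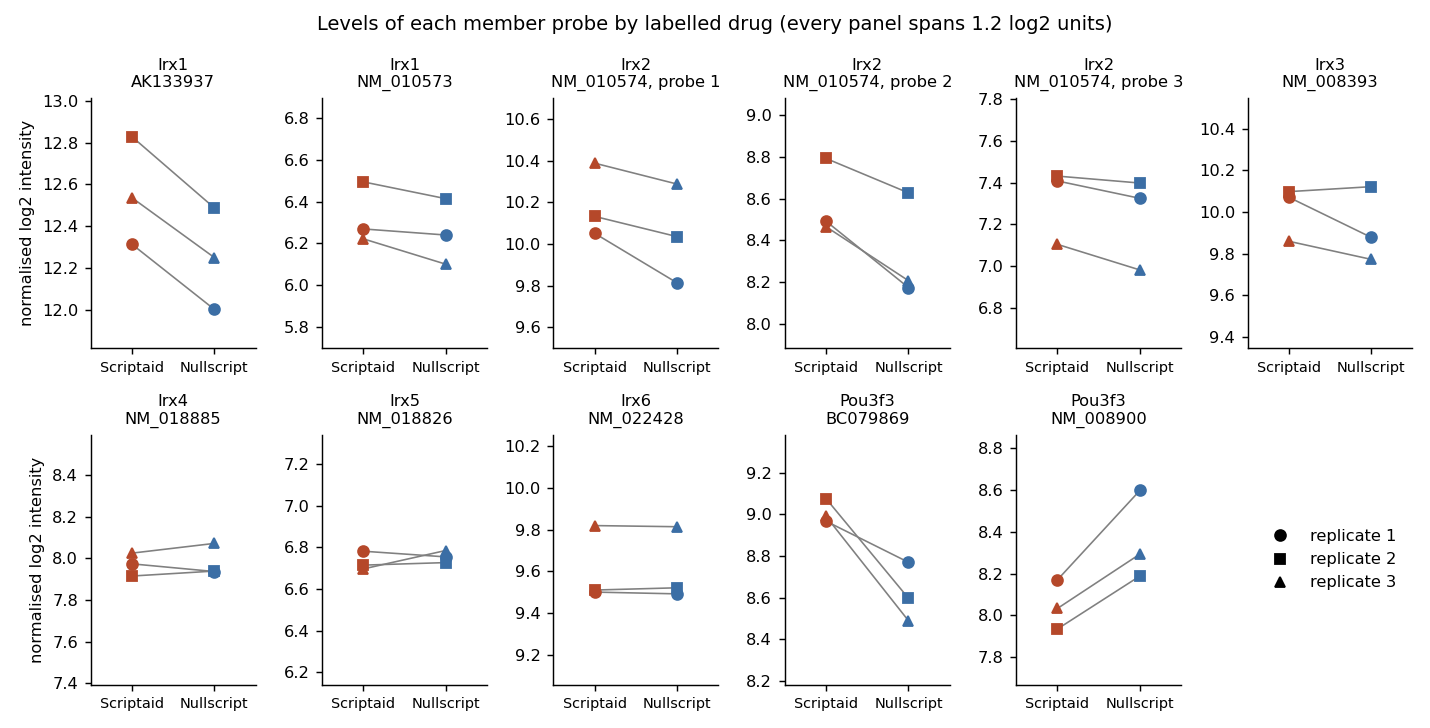
Normalised log2 intensity (vertical axis) of each member probe in the channel labelled Scriptaid and the channel labelled Nullscript, with 1 symbol per replicate, each the mean of 2 arrays, and a line joining the values of a replicate. The lines of Irx1 (AK133937) fall in parallel from Scriptaid to Nullscript, those of Irx6 are flat, and those of the 2 Pou3f3 probes slope in opposite directions.

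Pou3f3 was measured by 2 probes that gave opposite calls. The probe on the RefSeq transcript NM_008900 had log2 intensities of 8.17, 7.93 and 8.03 in the channel labelled Scriptaid, against 8.60, 8.19 and 8.29 in the channel labelled Nullscript. Every value labelled Scriptaid was below every value labelled Nullscript. The ratio was -0.31 ± 0.10 (SD, n = 3), which is 1.24-fold higher in the channel labelled Nullscript (limma adjusted p = 0.00483), negative on 6 of 6 arrays and past the threshold under all 15 other ways of processing that include this probe.

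The other Pou3f3 probe is designed on the cDNA clone BC079869 and carries the name Pou3f3 in the scanner files only, since that accession was not matched in the RefSeq table. Its log2 intensities were 8.97, 9.08 and 8.99 in the channel labelled Scriptaid and 8.77, 8.60 and 8.49 in the channel labelled Nullscript. Here every value labelled Scriptaid was above every value labelled Nullscript. The ratio was 0.39 ± 0.17 (1.31-fold, limma adjusted p = 0.00869), positive on 6 of 6 arrays, and the adjusted p was 0.0612 without replicate 3. These 2 probes were the only members whose levels did not overlap between the drugs, against 32.8% of all probes.

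The Pou3f3 probes differed by -0.71 ± 0.07 (NM_008900 minus BC079869), with -0.63, -0.73 and -0.76 in replicates 1, 2 and 3. An exact sign-flip test gave p = 0.25 (two-sided), the smallest that 3 replicates allow. Of 3609 genes with 2 or more called probes, 225 (6.23%) had calls in both directions. No single direction for Pou3f3 can be given from these values. A long noncoding RNA, Gm46091, overlaps Pou3f3 in the RefSeq table and has no probe of that name, and signal from it was not tested.

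The genes beside Pou3f3 were examined because several noncoding RNAs adjoin it. Pantr1, a long noncoding RNA that precedes Pou3f3 in the RefSeq gene order (GRCm38.p6), had ratios of 1.23, 0.83 and 0.95 in replicates 1, 2 and 3. Its mean of 1.00 ± 0.20 (limma adjusted p = 0.000773) was larger than that of any member probe. The noncoding gene 2900092D14Rik, next after Pou3f3, had 0.18 ± 0.07 (limma adjusted p = 0.0145), and its second probe gave 0.09. The BC079869 probe had the sign of both noncoding neighbours and the NM_008900 probe had the other sign. A link between these probes and the noncoding neighbours was not tested. The protein-coding genes farther out, Tmem182 at 0.07 and Mrps9 at 0.03, did not pass, and other Mrps9 probes gave 0.13 and 0.04. Tmem182 lies 1839 kb from Pou3f3 and Mrps9 151 kb.

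Around the chromosome 8 cluster, genes changed in both directions while Irx3, Irx5 and Irx6 did not pass. Crnde, a long noncoding RNA between Irx3 and Irx5, had -0.42 ± 0.05 (limma adjusted p = 0.000806). Fto, a demethylase gene whose introns hold enhancers of Irx3 in mouse and human, had 0.24 ± 0.15 (limma adjusted p = 0.0346), with 0.09 and 0.22 by its other probes. Behind Irx6, the matrix metalloproteinase gene Mmp2 had 0.76 ± 0.08 (limma adjusted p = 0.000311) and Lpcat2, an enzyme of phospholipid remodelling, -0.45 ± 0.06 (limma adjusted p = 0.000786). The noncoding 4831440D22Rik, before the cluster, had 0.15 ± 0.05 (limma adjusted p = 0.0185).

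Around the chromosome 13 cluster the nearest genes with a probe had ratios of either sign. The mitochondrial ribosomal protein gene Mrpl36, after Irx4, had 0.35 ± 0.06 (limma adjusted p = 0.00164). Ndufs6, a subunit of respiratory complex I beside it, had 0.27 ± 0.21 (limma adjusted p = 0.0512), and its other probes gave 0.27 and 0.27. Before Irx1, Adamts16 had -0.14 ± 0.01 (limma adjusted p = 0.0126) by its brightest probe, while a second gave 0.83, and 8030423J24Rik, at 0.04, did not pass. Adamts16 and 8030423J24Rik lie 1116 and 1074 kb from Irx1, while Ndufs6 and Mrpl36 lie 50 and 59 kb from Irx4. The noncoding D730050B12Rik and 4930555K05Rik, which lie between the Irx genes, had 0.05 and -0.05 and did not pass.

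**Figure D3:**
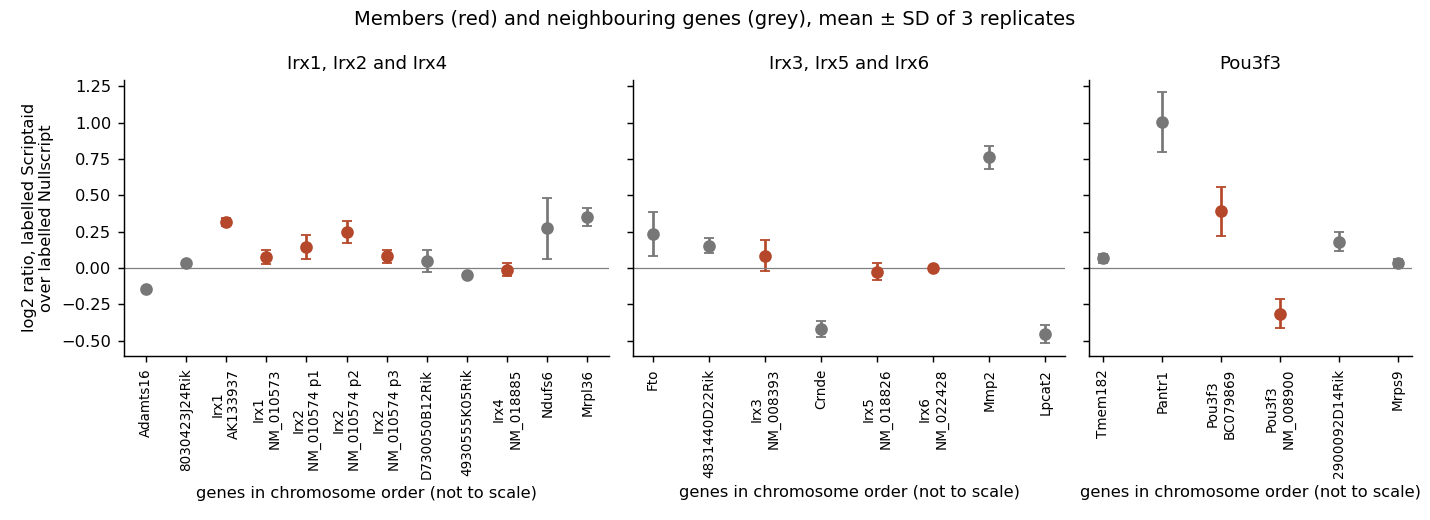
Log2 ratio (mean ± SD of 3 replicates, vertical axis) of the members in red and of neighbouring genes in grey, in chromosome order but not to scale, for the 2 Irx clusters and Pou3f3. Pantr1 stands at 1.00 beside the 2 Pou3f3 probes at 0.39 and -0.31, and the Irx3, Irx5 and Irx6 probes lie near 0 between neighbours at -0.45 to 0.76.

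RefSeq promoter windows (GRCm38.p6) were at hand for 4 of the 7 genes. The 250 bases before the start are shown for Pou3f3, whose probes disagreed, for Irx2, of which 2 probes were higher, and for Irx3, which did not pass. The Irx2 window lies inside the span that the RefSeq table gives the gene, so its start is not the outermost one, while the Pou3f3 and Irx3 windows adjoin the end of theirs. Capitals mark matches to CCAAT or GGGCGG, searched on both strands together with TATAAA, and no match overlaps another.
Pou3f3, chr1:42695518-42695767, plus strand: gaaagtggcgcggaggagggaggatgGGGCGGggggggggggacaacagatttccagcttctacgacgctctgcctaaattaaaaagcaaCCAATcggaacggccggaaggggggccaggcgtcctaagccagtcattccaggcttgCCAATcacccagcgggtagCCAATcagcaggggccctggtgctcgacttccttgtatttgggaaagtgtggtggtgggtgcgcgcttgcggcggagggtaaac
Irx2, chr13:72628570-72628819, plus strand: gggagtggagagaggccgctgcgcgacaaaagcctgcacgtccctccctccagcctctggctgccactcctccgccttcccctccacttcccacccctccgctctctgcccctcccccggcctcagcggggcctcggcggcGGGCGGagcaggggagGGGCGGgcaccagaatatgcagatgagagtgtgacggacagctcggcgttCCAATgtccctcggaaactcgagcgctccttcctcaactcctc
Irx3, chr8:91801655-91801904, minus strand: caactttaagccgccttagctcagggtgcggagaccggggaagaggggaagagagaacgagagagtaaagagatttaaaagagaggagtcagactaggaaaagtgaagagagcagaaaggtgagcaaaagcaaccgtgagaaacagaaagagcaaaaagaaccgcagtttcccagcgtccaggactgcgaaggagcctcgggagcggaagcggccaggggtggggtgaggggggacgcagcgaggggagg
The Pou3f3 window holds 3 CCAAT matches, which begin 160, 103 and 84 bases before the start, and 1 GGGCGG match. At least 3 CCAAT matches occur in 2.79% of the 32851 windows in the table and at least 1 in 33.8%. Irx2 has 1 CCAAT match, 43 bases before the start, and 2 GGGCGG matches, which 32.7% of windows hold at least once. The Irx3 window holds none of the motifs, and TATAAA, found in 12.4% of all windows, is in none of the 3. All 3 are rich in CpG: the observed over expected CpG ratio was 0.688 for Pou3f3, 0.666 for Irx2 and 0.790 for Irx3, and its median over all windows was 0.373. The window of Irx4, whose probe did not pass either, is not printed. It holds 2 GGGCGG matches, as that of Irx2 does, no CCAAT or TATAAA match, and a CpG ratio of 0.744. The matches therefore do not separate the called genes from the others. These matches describe the letters of the windows and are not binding sites measured here.

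A list of other transcription factors of nephron segments was read beside these 7 genes. Of 24 measured, 15 were higher and 3 lower, together 75% against 45.4% of all genes by their brightest probe (22.2% higher and 23.2% lower), with a median log2 ratio of 0.28 against -0.01 over all genes. Several of these genes were already known to differ here when the list was drawn up. Mecom, a zinc finger factor of distal segments in zebrafish pronephros, had 1.36 ± 0.17 (limma adjusted p = 0.000284) by its brightest probe, while others gave 0.04 and 0.15. Sim1, a factor of the straight segments in zebrafish, had 0.80 ± 0.15 (limma adjusted p = 0.000683). Emx2 and Wt1 had 0.98 ± 0.12 and 0.97 ± 0.07. Tfap2b, required for distal tubule development in mouse, had 0.00 by its brightest probe, which did not pass, and 0.57 by its other, so that here too the choice of probe decides the value. Tfap2b was named after its values were seen.

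Among products of the loop of Henle and distal tubule, the share called was near that of all genes. The list includes genes that depend on Pou3f3 in mouse, and whether those responded was not tested. Mean log2 intensity over both channels ran from 6.54 to 14.13 among the tested genes, with Calb1 the brightest. Cldn16 (6.54), Papss2 (6.65) and Trpm6 (6.68) were not far above the dim Irx1 probe, at 6.33 and 6.25. Ratios near 0 at such levels do not show a lack of response. Of 17 tested, 6 were higher and 2 lower (47.1%, against the same 45.4%), with a median of 0.02. That median is the ratio of the Papss2 probe, and another Papss2 probe gave 0.37. Kcnj16, a potassium channel gene, had 0.59 ± 0.14 (limma adjusted p = 0.00140), Sostdc1, a secreted BMP and Wnt antagonist, 0.55 ± 0.09, and the calcium binding protein gene Calb1 0.36 ± 0.05. Ppp1r1a, an inhibitor of protein phosphatase 1, had -0.61 ± 0.01 (limma adjusted p = 0.000244). Umod, the uromodulin gene of the thick ascending limb, did not pass at -0.08, and was named after its value was seen.

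Among the other POU factors 2 of 13 were higher and 2 lower (30.8%, against 45.4% of all genes), with a median of -0.05. Pou3f1, the relative of Pou3f3 known from Schwann cells, was lower at -0.97 ± 0.13 (limma adjusted p = 0.000357), which is larger than the ratio of either Pou3f3 probe. Pou6f1 had 0.63 ± 0.20 (limma adjusted p = 0.00275) by its brightest probe, while a second gave 0.03. Pou2f1 had 0.20 ± 0.12 (limma adjusted p = 0.0364). Pou3f2 and Pou3f4, which with Pou3f1 and Pou3f3 make up the class III factors, had -0.09 and -0.08 and did not pass, and these 2 were named after their values were seen.

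**Figure D4:**
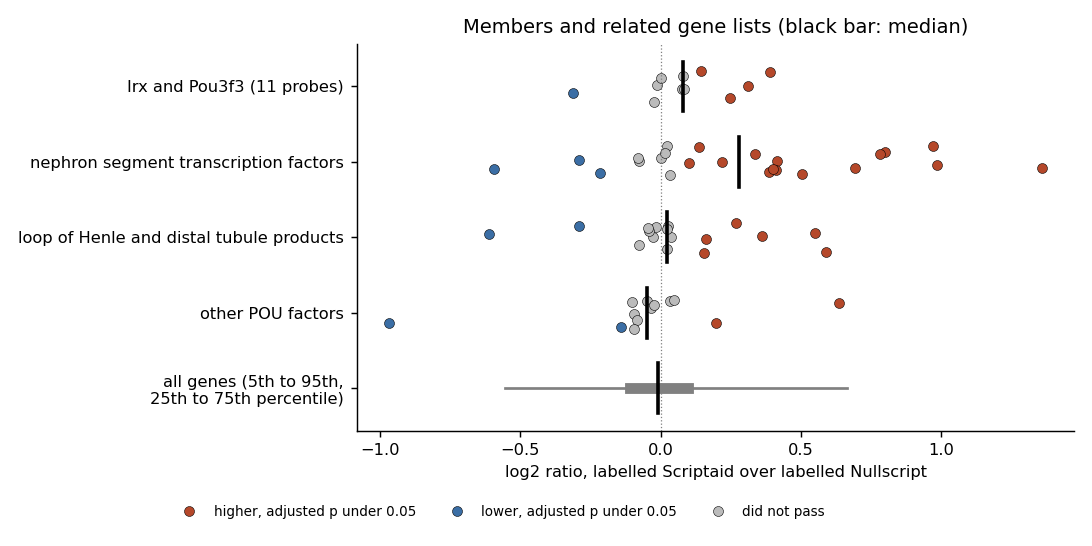
Log2 ratio (horizontal axis) of the 11 member probes and of the brightest probe of each gene in 3 related lists, in red where higher and blue where lower at adjusted p under 0.05 and grey otherwise, with medians as black bars. The bottom row gives percentiles over all genes; the nephron segment factors have the median farthest from 0, at 0.28.

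Markers of the cells a dissected kidney could hold were measured beside these genes, and are to be read against 22.2% of all genes called higher and 23.2% lower. All 13 embryonic kidney markers were above background, 10 higher and none lower, and their summed normalised intensity was 66454 to 71683 in the channel labelled Scriptaid and 38234 to 41767 in the channel labelled Nullscript. Of 12 neuron and neural crest markers, all above background, 1 was higher and 5 lower, with sums of 10668 to 12029 against 11810 to 13283. For gonad and adrenal, 8 of 8 were above background, 1 higher and 1 lower, with sums of 3796 to 4561 against 3920 to 4420. The red blood cell list had 9 of 9 above background and 3 lower, with sums of 27400 to 44466 against 33376 to 49637. The embryonic kidney list shares genes with the list of nephron segment factors, Wt1 among them, so their counts are not independent. The part of these cell types in the Irx and Pou3f3 ratios was not tested.

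The genes whose ratios over the 6 arrays were nearest to those of a called member, by Euclidean distance among 19142 genes, were Ptpn2 and Fasn for Irx1, Uqcc2 and Pcdhb19 for Irx2, and Ddb1 and Apbb1 for Pou3f3 (BC079869), each member represented by its brightest probe. Within a root mean square difference of 0.1 per array there were 141 genes for Irx1 and 299 for Irx2, but 2 for the Pou3f3 probe. A fixed radius takes in more genes for ratios near 0, and the number for other genes was not computed. The BC079869 ratios spanned 0.15 to 0.80 over the arrays.

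**Figure D5:**
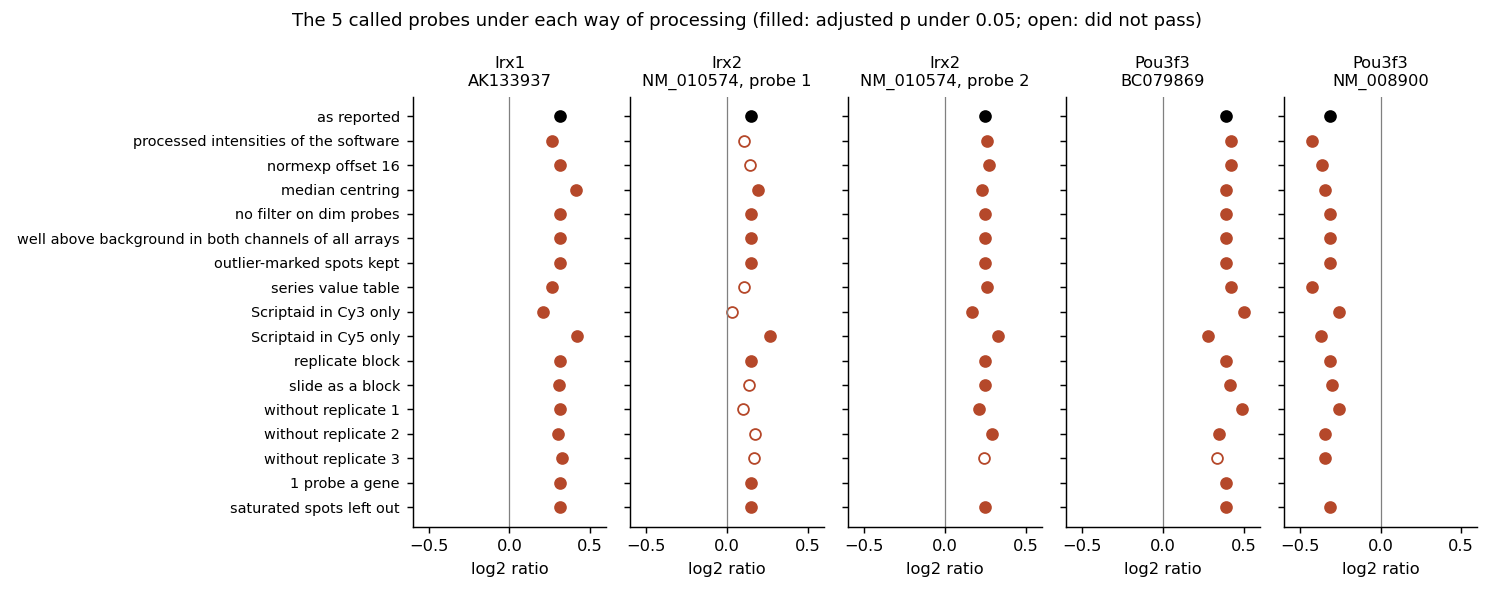
Log2 ratio (horizontal axis) of the 5 called member probes as reported and under 16 other ways of processing, filled where the limma adjusted p was under 0.05 and open where it was not. Irx1 (AK133937) stays between 0.21 and 0.42, Pou3f3 (NM_008900) stays between -0.43 and -0.26, and the first Irx2 probe has open symbols in 8 places.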

How the data were processed

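Per the file headers, Agilent Feature Extraction 9.1.3.1 gave the deposited intensity of each spot and its local background in both channels, processed intensities that were background-corrected, detrended and dye-normalised, and a log10 ratio of Cy5 over Cy3. The series value table holds deposited log10 ratios that equal the scanner ratios turned to labelled Scriptaid over labelled Nullscript, within 4.82e-06. Between 91.5% and 96.5% of spots other than controls were well above background per channel. The number of arrays limits the precision.

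Mean intensities were corrected with normexp (offset 50) and normalised by loess within arrays (limma 3.58.1, R 4.3.3). Control spots had no weight in the loess fit, and spots marked as outliers were dropped. Averaging both arrays of a replicate cancels an equal dye effect. Probes were kept when 3 or more of the 6 arrays were well above background for 1 of the drugs. Replicate means were tested for a difference from 0 by lmFit and eBayes, adjusted by Benjamini-Hochberg over probes. Levels per drug were taken after Aquantile. A gene in a list is represented by its brightest probe. Probes were named through the RefSeq table by accession (22951), current symbol (6659) or older symbol (3109), and 8455 kept the file's name. The files name no genome build, so gene coordinates are not given, and promoter windows carry their own build.

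The labels give both arrays of a number as the same biological replicate, which is where the pairing comes from. Deviations of such arrays from their dye orientation's mean had correlations of 0.61, 0.13 and 0.01. One slide held replicates 1 and 2, another replicate 3. The series text speaks of swapped dyes for 2 of 4 arrays. Here each array's own dye field was used. Named genes are all members, up to 4 called genes with the largest ratio per list, the neighbours of each locus, the 2 nearest patterns per member called by its brightest probe, and 5 genes that check the drug labels. A gene that this rule names is not reported here. Of the label checks, H1f0 and H1f2 had negative ratios as Cdkn1a did, and Myc a positive one as Ccnd1 did. The alternatives tried are given in the closing section. The members and lists were chosen with earlier results of these data known.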

Additional observations from a re-analysis of the deposited data

Results flagged for a closer look

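Irx6 was the member probe whose ratio turned with the dyes on every array. With Scriptaid in Cy5 the log2 ratios were 0.11, 0.02 and 0.16 in replicates 1, 2 and 3, and with Scriptaid in Cy3 they were -0.10, -0.04 and -0.15, a difference of 0.198 between the means of the orientations. In the fit over 6 arrays with a dye term and the replicate as a block, the dye term of this probe did not pass (limma adjusted p = 0.120), and it passed for 3.82% of all probes. The dye terms of the other 10 member probes did not pass either, with the lowest adjusted p for Irx1 (0.0805). Irx6 did not have the largest dye term. Its coefficient was 0.099, against 0.133 for Irx3, 0.118 for the brightest Irx2 probe, 0.104 for Irx1 (AK133937) and -0.113 for Pou3f3 (BC079869). Before adjustment the limma p of the dye term was 0.0052 for Irx1 (AK133937), 0.0094 for Irx3, 0.0115 for the brightest Irx2 probe and 0.0123 for Irx6. These probes had the higher ratio with Scriptaid in Cy5.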

How the results depend on the processing

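Over 16 other ways of processing, the number of member probes higher was 1 to 5 and the number lower 0 to 3. Without each replicate in turn there were 1 to 3 higher, the lowest without replicate 3, which is also the value within the first slide. The second slide holds replicate 3 alone and gives no test. Median centring gave 3 lower, and 1 probe a gene gave 0 lower, since the probe NM_008900 of Pou3f3 is not the brightest. Irx1 (AK133937) kept its sign and call in all 16 and Pou3f3 (NM_008900) in all 15 that include it. Ratios that did not pass turned sign in places. With median centring the second Irx1 probe was -0.18 and the third Irx2 probe -0.039, and with Scriptaid in Cy3 only Irx3 was -0.048. Without each replicate in turn Irx4 was -0.035 to 0.0065 and Irx5 -0.050 to 0.0075, above 0 without replicate 3. Irx6 was -0.042 with the processed intensities and with the series value table, -0.0049 with offset 16, -0.10 with Scriptaid in Cy3 only, and -0.0027 to 0.0069 without each replicate in turn. In the loop of Henle list 3 were higher with the slide as a block, 4 were lower with median centring, and 3 to 6 were higher without each replicate in turn. Of the other POU factors, 1 was higher with the processed intensities, the series value table, Scriptaid in Cy5 only and the slide as a block, and 1 to 2 without each replicate in turn. Those lower numbered 1 with Scriptaid in Cy3 only and with the slide as a block, 5 with Scriptaid in Cy5 only, 4 with the replicate block, and 1 to 2 without each replicate in turn. The replicate block changed no other count by more than 1.5 times and no call of a member probe. Signal near background limits what can be said of the second Irx1 probe, while the other 10 were well above background on all arrays. Irx5 was the next dimmest, at 6.73 and 6.75 against 6.33 and 6.25 for that Irx1 probe. Its ratio also moved with median centring, to -0.21. The cause of these changes was not tested.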
